A study of Mus musculus with 6 samples.

Results

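Primordial germ cells of the mouse reach the gonad around midgestation and divide by mitosis there before XX germ cells enter meiosis. They keep a transcription factor network shared with pluripotent stem cells, lose most of their DNA methylation and, in XX embryos, reactivate the silent X chromosome. The gene Stra8, which retinoic acid induces, marks the step into meiosis. Mitotic germ cells were selected on measured UMIs (unique molecular identifiers, 1 per captured transcript), as barcodes of the E12.5 and E11.5 XX gonad libraries with at least 500 detected genes, at most 10% mitochondrial UMIs and 0 UMIs of Stra8. Each also had UMIs of at least 3 of the 7 genes Dazl, Ddx4, Dppa3, Dppa5a, Pou5f1, Sycp3 and Mael, and at least 5 UMIs of the 7 genes summed. This rule found 669 germ cell barcodes among the 29398 deposited for the series. They were 348 of 3249 barcodes past the gene and mitochondrial limits at E12.5 (10.7%, exact Clopper-Pearson 95% interval 9.67 to 11.8%) and 321 of 2720 at E11.5 (11.8%, 10.6 to 13.1%).

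The series profiled single cells of XX gonads of the ICR strain at embryonic days E10.5 to E14.5 and, as a separate library, stem cell-derived gonadal soma (129svj x C57BL/6J) from day 6 of induction. The in vivo cells carried no named allele or treatment, and the labels do not say how many embryos were pooled in a library. Each group was 1 droplet library with no replicate, so no test was made and every interval covers counting error only. The E12.5 and E11.5 libraries held 40318026 and 41181565 UMIs. Median depth was 17800 UMIs in E12.5 germ cells and 9278 in the other E12.5 barcodes, against 22226 in E11.5 germ cells and 11216 in the other E11.5 barcodes. The libraries shared 18 barcodes, and none was a germ cell barcode in both libraries.

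The 7 selection genes separated the germ cells from the rest of each library, which describes the rule and is no finding. Their summed UMIs had a median of 81 in E12.5 germ cells and 108 in E11.5 germ cells. Among the other barcodes, 2422 of 2645 at E12.5 and 2182 of 2394 at E11.5 held 0 of these UMIs. Just inside the limit, 1 germ cell at E12.5 and 4 at E11.5 had 5 or 6 summed UMIs. Just outside it, 2 barcodes at E12.5 and 1 at E11.5 had at least 3 of the genes but 3 or 4 summed UMIs. The Stra8 condition removed 256 of 604 otherwise selected barcodes at E12.5 and 5 of 326 at E11.5.

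**Figure D1:**
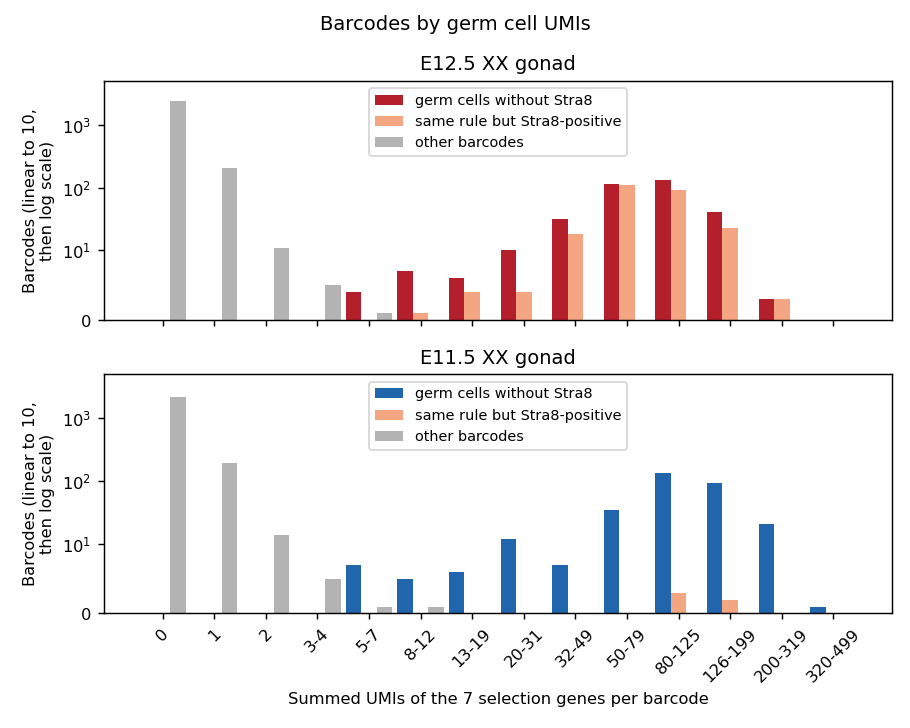
Number of barcodes (vertical axis, linear up to 10 and logarithmic above) by the summed UMIs of the 7 selection genes (horizontal axis, unequal bins), for E12.5 above and E11.5 below. Germ cells lie around medians of 81 and 108 summed UMIs, apart from the other barcodes, most of which hold 0, and Stra8-positive barcodes are numerous at E12.5 (256) and few at E11.5 (5).

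The label was checked against Pou5f1, Dppa3, Dppa5a and Dazl, which are themselves selection genes. Levels are given as CPM, the UMIs of a gene per 1000000 UMIs summed over the barcodes of a group. Dppa5a, an RNA-binding protein of pluripotent cells, stood at 2117 CPM in E12.5 and 2655 CPM in E11.5 germ cells, and Dppa3, a maternal factor that protects DNA methylation in the early embryo, at 1133 and 1138 CPM. Pou5f1, the pluripotency factor Oct4, stood at 533 CPM at E12.5 and 706 CPM at E11.5. Dazl, an RNA-binding protein needed for germ cell commitment, stood at 660 CPM at E12.5 and 450 CPM at E11.5. In the other barcodes these 4 genes were between 0.797 and 2.74 CPM in both libraries. Because the rule used these genes, their presence was fixed by the selection and is no independent check of the label. The remaining selection genes Ddx4 (91.3 CPM at E12.5 and 63.7 at E11.5), Sycp3 (66.4 and 35.6) and Mael (64.7 and 60.3) were lower in level.

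Many germline genes have CpG-rich promoters that are methylated in somatic cells. The upstream windows of 7 germ cell genes, 6 chosen because they hold a motif and Dazl as a window with neither, are shown for that reason, as the 250 bases before the transcription start in the RefSeq annotation of GRCm38.p6, 5′ to 3′ on the gene's strand. Capitals mark CACGTG, the E-box bound by MGA/MAX, and TCCCGC or its reverse complement GCGGGA, an E2F6-type motif. The motifs do not overlap each other in these windows. The windows of Pou5f1, Tcl1 and Usp26, which are not shown, held neither motif. The windows are those of Smc1b at chr15:85131958-85132207 (minus strand), Rec8 at chr14:55617916-55618165 (plus strand), Sycp3 at chr10:88459337-88459586 (plus strand), Ddx4 at chr13:112652311-112652560 (minus strand), Mael at chr1:166238745-166238994 (minus strand), Mov10l1 at chr15:88982744-88982993 (plus strand) and Dazl at chr17:50293621-50293870 (minus strand).
Smc1b: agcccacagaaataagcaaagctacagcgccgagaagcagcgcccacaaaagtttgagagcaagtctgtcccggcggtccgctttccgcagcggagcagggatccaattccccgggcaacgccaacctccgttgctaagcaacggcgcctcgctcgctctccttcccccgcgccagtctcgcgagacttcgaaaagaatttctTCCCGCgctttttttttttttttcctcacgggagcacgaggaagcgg
Rec8: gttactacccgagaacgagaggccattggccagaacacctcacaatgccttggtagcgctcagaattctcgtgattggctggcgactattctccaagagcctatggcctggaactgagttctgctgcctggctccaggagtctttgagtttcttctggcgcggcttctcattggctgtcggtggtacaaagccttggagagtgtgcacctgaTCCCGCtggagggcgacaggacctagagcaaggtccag
Sycp3: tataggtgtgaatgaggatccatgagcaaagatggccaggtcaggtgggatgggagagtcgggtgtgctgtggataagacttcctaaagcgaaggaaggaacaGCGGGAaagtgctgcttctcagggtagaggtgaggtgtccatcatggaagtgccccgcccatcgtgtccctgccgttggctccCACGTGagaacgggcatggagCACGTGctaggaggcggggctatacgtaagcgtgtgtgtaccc
Ddx4: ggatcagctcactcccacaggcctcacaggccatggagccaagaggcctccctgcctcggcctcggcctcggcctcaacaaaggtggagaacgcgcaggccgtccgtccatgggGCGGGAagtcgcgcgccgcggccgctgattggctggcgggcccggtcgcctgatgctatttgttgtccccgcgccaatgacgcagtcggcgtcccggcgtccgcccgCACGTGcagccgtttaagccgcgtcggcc
Mael: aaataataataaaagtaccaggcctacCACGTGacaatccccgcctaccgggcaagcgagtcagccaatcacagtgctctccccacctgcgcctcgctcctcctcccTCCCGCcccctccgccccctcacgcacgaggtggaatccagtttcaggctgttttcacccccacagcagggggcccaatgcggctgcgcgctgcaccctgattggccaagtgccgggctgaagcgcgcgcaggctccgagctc
Mov10l1: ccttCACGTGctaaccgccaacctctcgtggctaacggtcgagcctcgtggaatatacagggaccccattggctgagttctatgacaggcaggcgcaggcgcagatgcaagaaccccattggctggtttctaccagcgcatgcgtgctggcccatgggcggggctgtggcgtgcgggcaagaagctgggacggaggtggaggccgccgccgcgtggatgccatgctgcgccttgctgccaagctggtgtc
Dazl: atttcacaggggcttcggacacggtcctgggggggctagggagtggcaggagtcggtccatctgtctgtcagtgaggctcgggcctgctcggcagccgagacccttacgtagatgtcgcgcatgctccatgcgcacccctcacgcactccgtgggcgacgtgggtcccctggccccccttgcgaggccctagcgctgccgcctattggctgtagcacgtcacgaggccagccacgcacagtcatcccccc

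CACGTG, which reads the same on both strands, was in 6.02% of the 32851 RefSeq promoter windows of this length and TCCCGC, on either strand, in 16.9%. Of 26 windows of 19 methylation-sensitive germline genes, 15 held CACGTG and 5 held TCCCGC. Of 28 windows of 24 meiotic genes, 9 held CACGTG and 14 held TCCCGC. For pluripotency genes the counts were 1 and 4 of 17 windows. A match describes these letters only and is not evidence of binding.

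Which genes set the germ cells apart from the rest of the gonad was described first. Most measured genes of the specification, pluripotency, methylation-sensitive germline and piRNA lists were higher in germ cells, and most measured imprinted genes were lower. A gene was called when the 2 sums differed at least 4-fold with an interval that excluded 1, among genes at 10 CPM or more in either sum. Of 8688 genes measured at E12.5, 578 were higher in germ cells (6.65%) and 1285 lower (14.8%), together 21.4%. Of 8833 measured at E11.5, 505 were higher (5.72%) and 1317 lower (14.9%), together 20.6%. Both libraries called 441 of the higher genes, 76.3% of the E12.5 calls and 87.3% of the E11.5 calls, and 1089 of the lower genes, 84.7% and 82.7%.

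All 14 measured genes of a germ cell specification list were higher in germ cells in both libraries, against 6.65% (E12.5) and 5.72% (E11.5) of all genes. The list median log2 ratios were 6.74 at E12.5 and 5.86 at E11.5, against medians of all genes of -0.04 and -0.10. Tfap2c, a transcription factor of germ cell specification, stood at 50.1 CPM in E12.5 germ cells against 0.512 CPM in the other barcodes, and at 51.0 against 1.42 CPM at E11.5. Prdm1, which represses the somatic program at specification, stood at 28.2 against 1.26 CPM at E12.5 and at 26.7 against 0.915 CPM at E11.5. Its partner Prdm14 was at 12.7 CPM in E12.5 and 14.8 CPM in E11.5 germ cells and had no UMI in the other barcodes of either library. The order of these factors was the same at both stages. Nanos3, an RNA-binding protein that protects migrating germ cells from death, was at 43.0 and 44.2 CPM in E12.5 and E11.5 germ cells, against 6.66 and 3.01 CPM in the others. Its partner Dnd1 was at 181 and 203 CPM, against 6.08 and 6.23 CPM. Kit, the receptor for stem cell factor, was at 62.3 and 49.8 CPM, against 3.48 and 2.07 CPM, whereas the chemokine receptor Cxcr4 was near the limit of measurement at 9.15 and 10.7 CPM. The homeobox genes Rhox6 (558 CPM at E12.5, 618 at E11.5) and Rhox9 (911 and 828) were among the most abundant germ cell genes and lay below 1.4 CPM in the other barcodes.

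Of the pluripotency list, 16 of 18 measured genes were higher in germ cells at E12.5 and 18 of 19 at E11.5, and Klf4 was lower at both stages. Among all genes, 6.65% (E12.5) and 5.72% (E11.5) were called higher. Sox2, a partner of Oct4, stood at 146 CPM in E12.5 germ cells against 0.342 CPM in the other barcodes, and at 188 against 0.561 CPM at E11.5. Nanog, a homeobox factor of the same network, stood at 36.4 against 0.205 CPM at E12.5 and at 50.2 against 0.266 CPM at E11.5. Utf1, a chromatin-bound factor of pluripotent cells, reached 467 CPM at E12.5 and 612 CPM at E11.5, against 21.0 and 39.9 CPM. Klf4, one of the reprogramming factors, ran the other way, with 9.31 CPM in E12.5 germ cells against 78.1 CPM, and 5.36 CPM in E11.5 germ cells against 37.3 CPM. Among the 10 genes named for the largest germ cell excess were Tcl1, an AKT coactivator, at 91.0 and 122 CPM, and Gdf3, a TGF-beta family ligand, at 51.7 and 61.1 CPM. Foxr1, a forkhead gene, stood at 72.5 and 64.8 CPM and Mov10l1, a helicase of piRNA production, at 64.8 and 56.2 CPM. These 4 genes were at or below 0.148 CPM in the other barcodes.

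Of 16 measured methylation-sensitive germline genes, 15 were higher in germ cells at each stage, as were all 11 measured piRNA and transposon silencing genes. The share of all genes called higher was 6.65% at E12.5 and 5.72% at E11.5. The lists overlap: of the called piRNA genes, only Tdrd5, Tdrd12 and Morc1 were not also among the called methylation-sensitive genes. Tex19.1, a mammal-specific gene that limits retrotransposons, stood at 143 CPM in E12.5 and 158 CPM in E11.5 germ cells. Stk31, a tudor-domain kinase, stood at 77.8 and 63.9 CPM, and Hormad1, a meiotic chromosome axis protein, at 22.5 and 27.9 CPM. All 3 lay below 0.65 CPM in the other barcodes. Of these 3 genes, Hormad1 is one of meiotic chromosome structure, and it was detected in barcodes with 0 Stra8 UMIs at both stages. Such barcodes may still hold Stra8 transcripts that were not captured.

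A list of germ cell RNA-binding proteins was mixed. Of 20 measured genes, 9 were called higher at each stage, and 1 (E12.5) and 2 (E11.5) lower. Among all genes, 6.65% (E12.5) and 5.72% (E11.5) were called higher and 14.8% and 14.9% lower. Its summed level was 2237 CPM in E12.5 germ cells against 2121 CPM in the other barcodes, and 2581 against 2518 CPM at E11.5.

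DNA methylation enzymes differed among themselves. Dnmt1, the maintenance methyltransferase, stood at 145 CPM in E12.5 germ cells against 46.5 CPM in the other barcodes, and at 132 against 43.5 CPM at E11.5, short of the 4-fold limit. Uhrf1, its recruiting partner, was lower in germ cells, at 14.4 against 42.9 CPM at E12.5 and at 9.03 against 47.0 CPM at E11.5, where it was called. The de novo enzyme Dnmt3a stood at 24.9 against 61.5 CPM at E12.5 and at 23.7 against 68.8 CPM at E11.5. Dnmt3b was at 4.33 and 2.96 CPM in E12.5 and E11.5 germ cells, and its cofactor Dnmt3l had no UMI in either, which allows up to 0.481 and 0.423 CPM (3 counts). Tet1, which oxidises methylcytosine, was higher in germ cells, at 92.4 against 16.9 CPM at E12.5 and at 85.1 against 15.8 CPM at E11.5. The chromatin remodeller Hells, needed for methylation of repeats, was also called, at 863 against 87.7 CPM at E12.5 and at 477 against 80.1 CPM at E11.5. Of this list 2 of 21 measured genes were called higher at each stage, and 2 (E12.5) and 4 (E11.5) lower. Over all genes, 6.65% (E12.5) and 5.72% (E11.5) were higher and 14.8% and 14.9% lower. These small counts therefore do not set the list apart from all genes.

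Among lower genes, 15 of 23 measured imprinted genes were called at each stage, with a median log2 ratio of -3.11 at E12.5 and -3.12 at E11.5. The share of all genes called lower was 14.8% at E12.5 and 14.9% at E11.5. H19 stood at 49.7 CPM in E12.5 germ cells against 968 CPM in the other barcodes, and at 66.1 against 815 CPM at E11.5. Cdkn1c, an imprinted inhibitor of cyclin-dependent kinases, stood at 63.7 against 1402 CPM at E12.5 and at 113 against 1496 CPM at E11.5. Phlda2 was the 1 imprinted gene called higher, at 387 against 4.17 CPM at E12.5 and at 272 against 3.16 CPM at E11.5. Of the list of immediate early and heat shock genes, 9 of 15 measured were called lower at E12.5 and 8 of 14 at E11.5. The heat shock chaperone Hsp90aa1 was called higher, at 5046 against 848 CPM at E12.5 and at 4961 against 999 CPM at E11.5, and with it the summed level of the list was higher in germ cells (5391 against 3293 CPM at E12.5, 5401 against 2764 CPM at E11.5). Fos stood at 34.8 against 619 CPM at E12.5 and at 19.2 against 336 CPM at E11.5. The 5 named genes with the largest excess in the other barcodes, Cxcl12, Dcn, Ccdc80, C1qtnf7 and Tcf7l2, were each at 1.6 CPM or less in germ cells of both stages.

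Genes of cell division leaned higher in germ cells, with list medians short of the 4-fold limit. For 22 S phase genes the median log2 ratio was 1.21 at E12.5 and 0.91 at E11.5, with 4 and 1 called higher. For 22 G2/M genes it was 1.19 and 0.95, with 3 and 0 called. Over all genes, 6.65% were called higher at E12.5 and 5.72% at E11.5, so both lists exceeded that share at E12.5 only. Mki67, a marker of cycling cells, stood at 81.7 CPM in E12.5 germ cells against 42.0 CPM, and at 81.3 against 51.2 CPM at E11.5. Ccnb1, the mitotic cyclin, stood at 222 against 67.5 CPM at E12.5 and at 241 against 94.9 CPM at E11.5. These barcodes also had the larger depth given above, and its part in the difference was not tested.

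**Figure D2:**
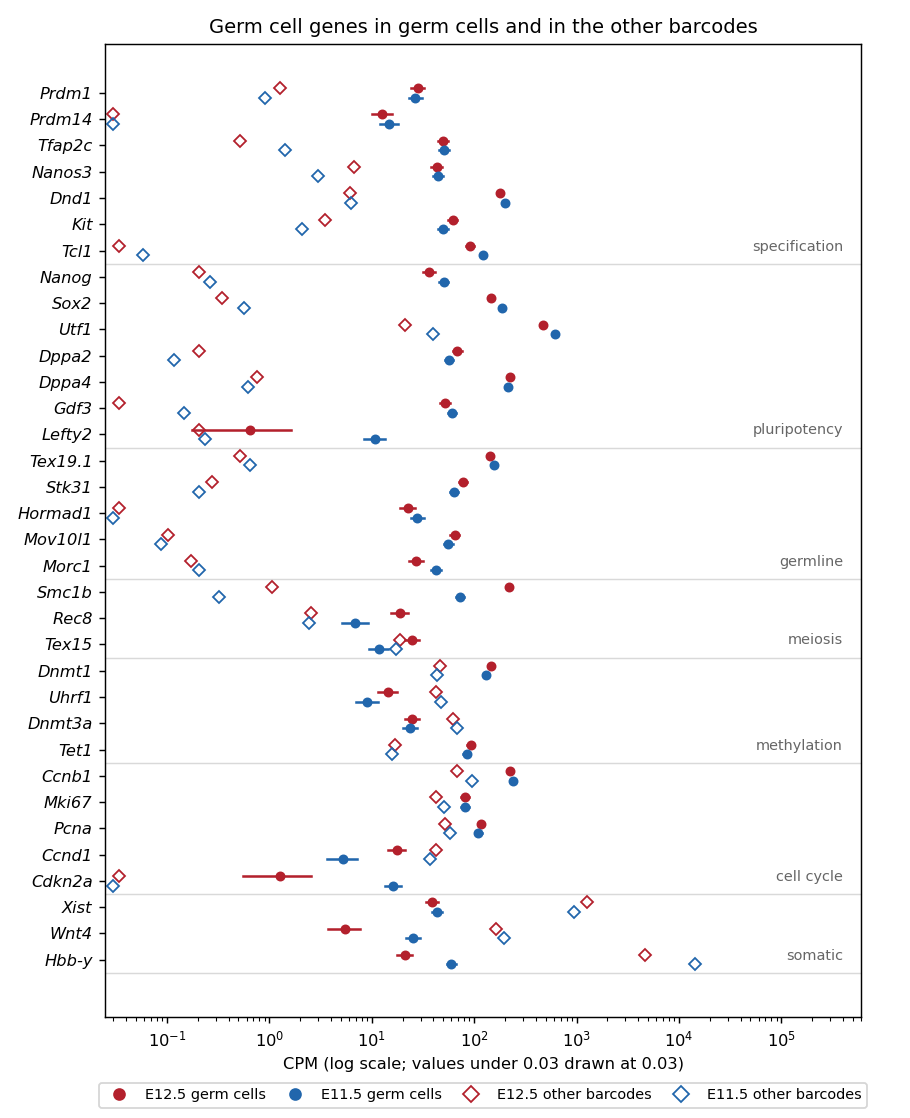
Levels in CPM (horizontal log axis) of selected genes in E12.5 and E11.5 germ cells (filled circles, E12.5 drawn above E11.5, bars are exact Poisson 95% intervals) and in the other barcodes (open diamonds). Specification, pluripotency and germline genes other than Lefty2 lie far to the right of the diamonds at both stages. Lefty2 does so at E11.5 only, and at E12.5 its interval covers the diamond (0.642 against 0.205 CPM). Smc1b is higher at E12.5 (217 against 72.8 CPM) and Lefty2 and Cdkn2a are higher at E11.5.

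The change between stages was small beside this contrast. At 10 CPM or more in either sum, 7285 genes were measured, and calls needed a 2-fold difference with an interval that excluded 1. Of these, 63 were higher in E12.5 germ cells (0.865%) and 105 lower (1.44%), together 2.31%. The balance depended on the scaling: 138 were higher and 130 lower with totals that left out mitochondrial, ribosomal protein and haemoglobin genes, and 84 and 81 with ratios centred on the median of all genes. In the other barcodes of the same 2 libraries 160 of 8084 genes were called (1.98%), 69 higher and 91 lower. No gene of the specification, methylation-sensitive germline, piRNA, DNA methylation or chromatin regulator lists was called, and neither was any selection gene.

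Some genes of meiotic chromosomes were higher at E12.5. Of 14 measured genes of the meiotic list, 3 were called higher at E12.5 and none lower, against 0.865% and 1.44% of all genes. The list median log2 ratio was 0.34, against -0.09 for all genes. Smc1b, the meiosis-specific cohesin subunit, stood at 217 CPM (206 to 229) at E12.5 and 72.8 CPM (66.7 to 79.4) at E11.5, a ratio of 2.99 (2.70 to 3.31). Rec8, the meiotic kleisin that closes the cohesin ring, stood at 18.8 CPM at E12.5 and 6.92 CPM at E11.5, a ratio of 2.71 (1.93 to 3.87). Tex15, needed for recombination in male meiosis, stood at 24.7 CPM at E12.5 and 11.7 CPM at E11.5, a ratio of 2.11 (1.60 to 2.79), but the other barcodes held it at similar levels of 18.7 and 17.2 CPM. For Smc1b the higher level was shared by many cells: after thinning each barcode to 3000 UMIs, 43.5% (38.1 to 48.9%) of E12.5 germ cells and 17.6% (13.52 to 22.3%) of E11.5 germ cells held a UMI, against 0.307% and 0.127% of the other barcodes. The thinning left out 12 E12.5 and 8 E11.5 germ cells that were shallower. The synaptonemal complex genes Syce3 (34.2 CPM at E12.5, 18.2 at E11.5), Sycp1 (9.95 and 5.22) and Sycp3 (66.4 and 35.6) were higher by less than 2-fold. Sycp3 is a selection gene of the rule, so its values are a description only. After thinning, Rec8 (log2 ratio 1.10) and Tex15 (0.95) no longer met the call.

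The level of these genes also differed within E12.5 by Stra8, a contrast that the rule itself used. In the 256 Stra8-positive E12.5 barcodes 45 of 7270 genes were higher than in the 348 without Stra8 UMIs (0.619%) and 21 lower (0.289%), together 0.908%. Rec8 stood at 56.2 CPM in Stra8-positive barcodes and 18.8 CPM in those without Stra8 UMIs, Smc1b at 408 and 217 CPM, and Sycp1 at 28.0 and 9.95 CPM. Leaving Stra8-positive barcodes out therefore lowered the E12.5 level of these genes, and a cell without a Stra8 UMI may still hold Stra8 transcripts that were not captured.

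Of the pluripotency list, 1 gene was called between the stages, against 2.31% of all genes. The median log2 ratio of 18 measured genes was -0.27, against -0.09 for all genes. The called gene was Lefty2, an inhibitor of Nodal signalling, at 0.642 CPM (0.175 to 1.64) at E12.5 and 10.7 CPM (8.45 to 13.4) at E11.5, 16.7-fold lower (6.27 to 62.9). Of the same signalling pathway, the ligand Nodal (1.28 CPM at E12.5 and 4.09 at E11.5), its coreceptor Tdgf1 (1.28 and 6.92) and Lefty1 (2.41 and 3.95) were under 10 CPM and not measured. Nanog, Sox2, Utf1 and Pou5f1 had ratios of 0.725, 0.778, 0.763 and 0.755, each with an interval below 1 but within the 2-fold limit. Pou5f1 is a selection gene, so its ratio is a description only. Dppa4 (225 CPM at E12.5 and 213 at E11.5) and Dppa2 (68.5 and 56.9), paired chromatin factors, were not lower.

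Where the same rule was applied to every gonad stage in time order, the levels of Pou5f1 were 808, 706, 533, 279 and 6.45 CPM. Those of Smc1b were 27.5, 72.8, 217, 274 and 1909 CPM. Pou5f1 is a selection gene of the rule, so its levels over the stages are a description only. The rule found 18, 321, 348, 97 and 337 barcodes at these stages, so the E10.5 values rest on 176 UMIs of Pou5f1 and 6 of Smc1b. At E14.5 the barcodes without Stra8 UMIs held Sycp3 at 1835 CPM, and the label mitotic was not applied to them.

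Cell cycle genes as a group did not separate the stages: none of 22 S phase and none of 22 G2/M genes was called, with median log2 ratios of -0.01 and -0.06. In the other barcodes the medians were -0.36 and -0.41, also without a call. Of 14 measured cyclins and inhibitors, 2 were called, against 0.865% of all genes called higher and 1.44% lower. Ccnd1, a G1 cyclin, stood at 17.7 CPM at E12.5 and 5.22 CPM at E11.5, a ratio of 3.38 (2.31 to 5.05), with 42.6 and 36.9 CPM in the other barcodes, and it no longer met the call after thinning (log2 ratio 1.26). Cdkn2a, which encodes the p16 and p19ARF inhibitors, stood at 1.28 CPM (0.554 to 2.53) at E12.5 and 16.2 CPM (13.4 to 19.5) at E11.5, 12.6-fold lower (6.21 to 30.0). Its UMIs were found in 2.30% of E12.5 and 28.3% of E11.5 germ cells before thinning, and at or below 0.0342 CPM in the other barcodes. Across stages Cdkn2a had no UMI at E10.5, where 3 counts would be 13.8 CPM, and stood at 18.6 CPM at E13.5 and 46.9 CPM at E14.5. Among E11.5 to E14.5, the E12.5 level was the lowest.

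**Figure D3:**
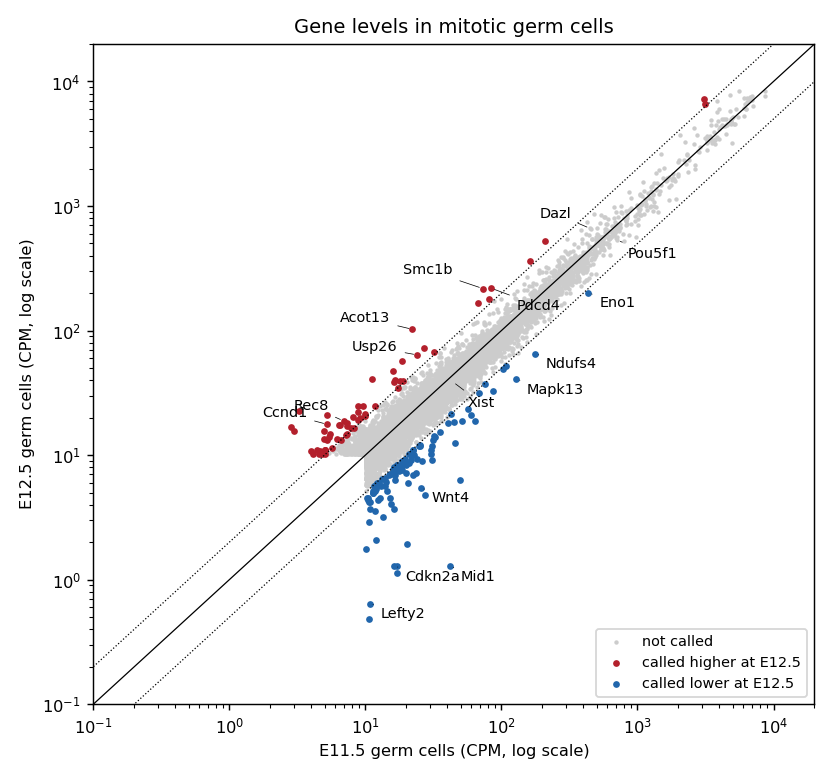
Level of each gene at 10 CPM or more in either group, in E12.5 germ cells (vertical log axis, CPM) and E11.5 germ cells (horizontal log axis, CPM). Dotted lines mark 2-fold differences. Red points are the 63 genes called higher at E12.5 and blue points the 105 called lower. Smc1b, Acot13 and Usp26 lie above the band, and Lefty2, Cdkn2a and Mapk13 below it.

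Outside these lists the largest differences at 50 CPM or more concerned genes of several functions. Acot13, a mitochondrial acyl-CoA thioesterase, stood at 102 CPM at E12.5 and 22.2 CPM at E11.5, a ratio of 4.61 (3.87 to 5.53). In the other barcodes it was also higher at E12.5, at 58.0 and 38.5 CPM. Under the same rule Acot13 stood at 124 CPM at E10.5 (27 UMIs), 38.7 CPM at E13.5 and 32.8 CPM at E14.5. Its E11.5 level was thus the lowest of the gonad stages. Usp26, an X-linked ubiquitin protease of germ cells, stood at 63.7 and 24.0 CPM, a ratio of 2.65 (2.21 to 3.20), and was at or below 0.102 CPM in the other barcodes. Pdcd4, a translation inhibitor, stood at 219 and 84.0 CPM in germ cells and at 174 and 97.3 CPM in the other barcodes. Of these 3 genes, Usp26 was nearly absent from the other barcodes and the other two were not. At E10.5 the same rule gave 9.18 CPM of Usp26 (2 UMIs) and 32.1 CPM of Pdcd4 (7 UMIs), each below its E11.5 level. Cox7a1, a cytochrome c oxidase subunit, and Calcoco2, an autophagy receptor, were also much higher in germ cells than in the other barcodes and had E12.5 over E11.5 ratios of 1.94 each, just under the limit.

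In the other direction, Mapk13, a p38 kinase, stood at 40.6 CPM at E12.5 and 128 CPM at E11.5, 3.16-fold lower (2.75 to 3.65), with 6.80 and 7.11 CPM in the other barcodes. Ndufs4, a complex I subunit, stood at 65.0 and 176 CPM, 2.71-fold lower (2.43 to 3.04), whereas the other barcodes held 168 CPM at both stages. It was the 1 called gene among 23 respiratory chain genes, whose median log2 ratio was -0.06, against 1.44% of all genes called lower. Under the same rule Mapk13 stood at 41.3 CPM at E10.5 (9 UMIs), 48.3 CPM at E13.5 and 11.7 CPM at E14.5. Ndufs4 stood at 78.0 CPM (17 UMIs), 45.3 and 36.6 CPM at these stages. For both genes the E11.5 level was the highest of the gonad stages. With 1 library each, stage and library cannot be told apart. Golt1b, a Golgi transport protein, stood at 32.4 and 86.7 CPM in germ cells and at 36.6 and 53.1 CPM in the other barcodes.

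Glycolytic genes leaned lower at E12.5 in germ cells and in the other barcodes, with list medians short of the 2-fold limit. In germ cells the median log2 ratio of 16 measured genes was -0.64 and 2 genes were called lower, against 1.44% of all genes. In the other barcodes it was -0.53 over 15 genes, with 1 called lower, against 1.13% of all genes. Pkm, the last enzyme of the pathway, stood at 560 CPM at E12.5 and 972 CPM at E11.5 in germ cells and at 604 and 942 CPM in the others. Eno1, enolase, stood at 201 CPM at E12.5 and 435 CPM at E11.5 in germ cells, a ratio of 0.462 (0.433 to 0.494), and at 417 and 897 CPM in the others. A near-identical copy, Eno1b, was counted separately at 4.49 and 15.1 CPM in germ cells, so the split of reads between these genes is uncertain. Pfkl, a phosphofructokinase, stood at 10.1 and 30.2 CPM, 2.99-fold lower, but the direction was not kept after thinning (log2 0.050), and Eno1 no longer met the call there (-0.98). The stages also differ by library, and neither can be told apart from the other with 1 library each.

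Some differences had the same direction in the other barcodes, among 3 genes chosen after their values were seen. Gng13, a G protein subunit, stood at 22.6 CPM at E12.5 and 3.25 CPM at E11.5 in germ cells and at 136 and 9.12 CPM in the others. Mid1, an X-linked ubiquitin ligase, stood at 1.28 and 41.8 CPM in germ cells and at 5.50 and 30.3 CPM in the others. The ribosomal protein gene Rps29 stood at 6568 and 3140 CPM in germ cells and at 7306 and 2974 CPM in the others.

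**Figure D4:**
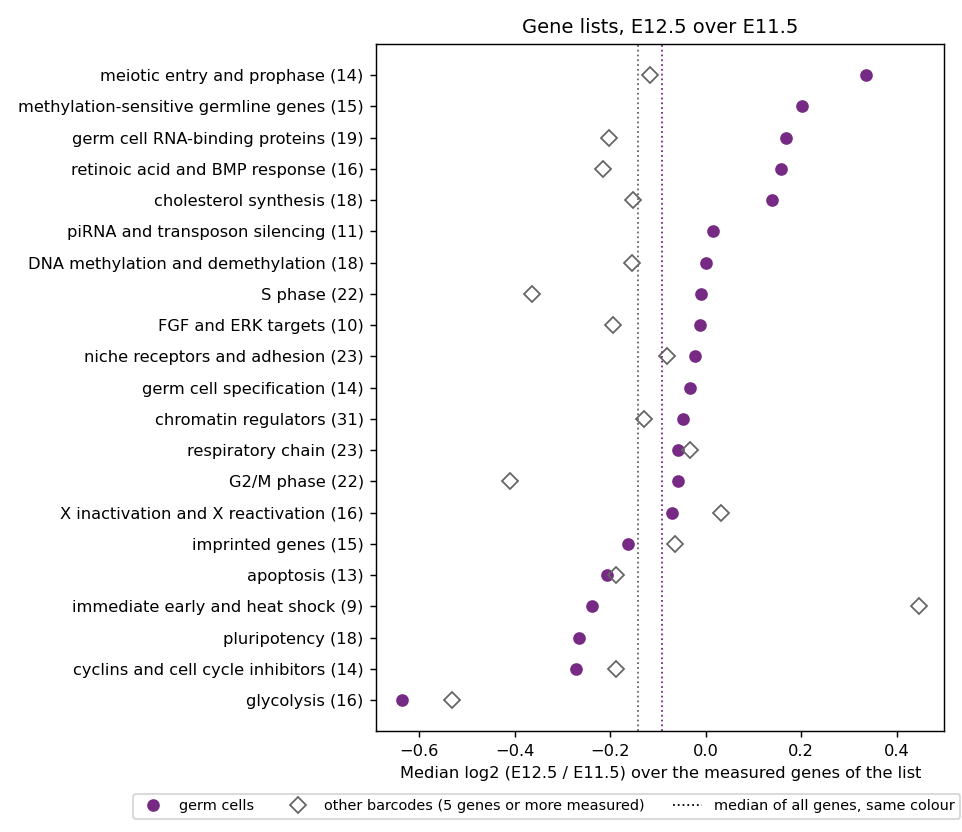
Median log2 ratio of E12.5 over E11.5 (horizontal axis) for the gene lists other than selection genes, male germline genes and markers of other cell types (vertical axis, genes measured in germ cells in brackets), in germ cells (filled circles) and in the other barcodes (open diamonds, where at least 5 genes were measured). Dotted lines are the medians of all genes, -0.09 in germ cells and -0.14 in the other barcodes. Of the lists drawn, the meiotic one lies farthest right in germ cells (0.34) and glycolysis farthest left in both (-0.64 and -0.53).

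X-linked expression was described because both X chromosomes are thought to be active in XX germ cells of this age. Xist, the RNA that coats the inactive X, was scarce in germ cells. After thinning to 3000 UMIs, 17 of 336 E12.5 germ cells held an Xist UMI (5.06%, 2.97 to 7.98%), against 2404 of 2608 other E12.5 barcodes (92.2%). At E11.5 it was 14 of 313 germ cells (4.47%, 2.47 to 7.39%), against 2045 of 2362 other barcodes (86.6%). Before thinning, with the median depths given above, the shares were 14.4% of germ cells and 96.9% of the other barcodes at E12.5, and 14.3% and 97.0% at E11.5. Summed levels were 38.8 CPM in E12.5 germ cells against 1258 CPM in the others, and 43.8 against 939 CPM at E11.5. Low Xist thus held in both libraries, and the summed levels of the 2 stages did not differ beyond counting error, with a ratio of 0.887 (0.747 to 1.05). This ratio rests mostly on a few barcodes rich in markers of other cell types, described below, which held most Xist UMIs. In the remaining germ cells Xist stood at 7.23 CPM at E12.5 (42 UMIs) and 5.68 CPM at E11.5 (36 UMIs).

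The share of UMIs from X-linked genes other than Xist was 4.24% in E12.5 germ cells against 3.92% in the other E12.5 barcodes, and 3.83% in E11.5 germ cells against 3.79% in the other E11.5 barcodes. Over barcodes the median was 4.27% in E12.5 germ cells (quartiles 3.98 to 4.54%) and 3.82% in E11.5 germ cells (3.53 to 4.04%). In the other barcodes the median was 3.95% at E12.5 (3.75 to 4.18%) and 3.89% at E11.5 (3.67 to 4.13%). By the median, germ cells were thus above the other barcodes at E12.5 but below them at E11.5, with overlapping quartile ranges at each stage. At E11.5 the order of germ cells and other barcodes depended on the measure. The germ cell quartile ranges of the stages overlapped between 3.98 and 4.04%. Across 240 measured X-linked genes the median log2 ratio of E12.5 over E11.5 germ cells was 0.03 (quartiles -0.18 to 0.25), against -0.10 (-0.30 to 0.11) across 7028 autosomal genes. In the other barcodes the medians were -0.12 over 262 X-linked and -0.14 over 7803 autosomal genes. Usp26 and Mid1, named above, are X-linked and moved in opposite directions. Over all gonad stages in time order, the same rule gave X-linked shares of 3.34, 3.83, 4.24, 4.39 and 4.36%, and the other barcodes held 3.54, 3.79, 3.92, 4.28 and 4.20%.

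**Figure D5:**
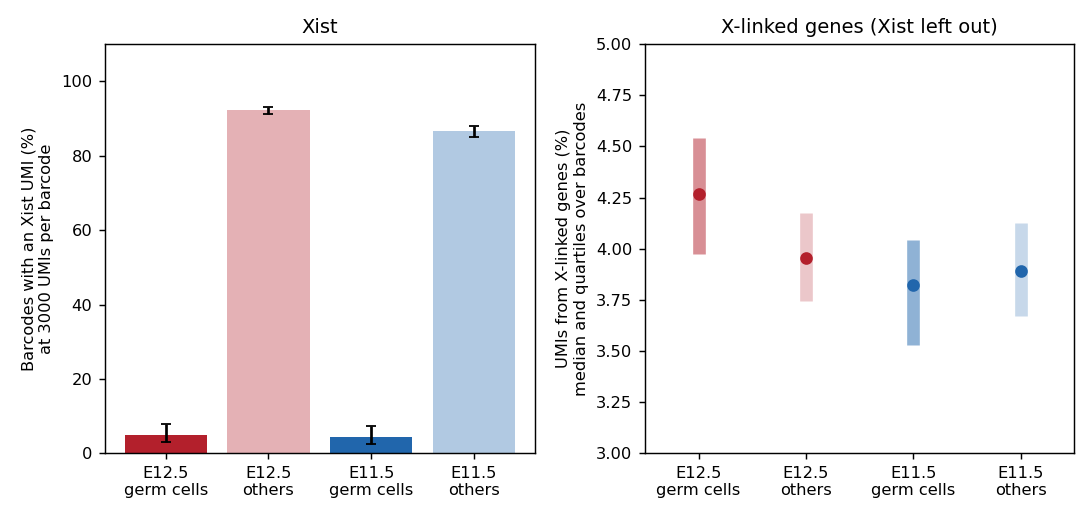
Left, percentage of barcodes with an Xist UMI at 3000 UMIs per barcode, with exact 95% binomial intervals. Right, percentage of UMIs from X-linked genes without Xist, as the median (point) and quartiles (bar) over barcodes, on an axis that does not start at 0. Each stage shows germ cells left of the other barcodes: Xist shares are 5.06% and 4.47% in germ cells, and the X-linked median is 4.27% in E12.5 and 3.82% in E11.5 germ cells.

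Markers of other cell types in the germ cell barcodes moved with part of the stage difference. Over 48 genes of the supporting lineage, coelomic epithelium, stroma and leukocyte lists, 16 of 348 E12.5 germ cells (4.60%) and 24 of 321 E11.5 germ cells (7.48%) held 5 or more UMIs per 10000, against 97.2% and 93.7% of the other barcodes. The medians were 0.583 and 0.512 per 10000 in E12.5 and E11.5 germ cells. These few barcodes held 67.6% of the germ cells' Wnt4 UMIs at E12.5 and 98.3% at E11.5, and 82.6% and 88.4% of their Xist UMIs. All of them held Xist, against 10.2% of the remaining germ cells at E12.5 and 7.41% at E11.5. At E12.5 13 of them and at E11.5 21 held 50 or more selection gene UMIs. Their median depth was 25311 UMIs at E12.5 and 27002 at E11.5, against 17556 and 21722 in the remaining germ cells. Whether they were doublets was not tested. Wnt4, a signal of the supporting lineage, stood at 5.46 and 25.4 CPM in E12.5 and E11.5 germ cells, against 165 and 196 CPM in the other barcodes. Of the 105 genes lower at E12.5, 66 lay below the level of the other E11.5 barcodes. Without these barcodes 76 genes were called lower, 60 of them among the 105, and 74 higher, 55 of them among the 63.

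The summed supporting lineage markers were at 46.2 CPM in E12.5 and 101 CPM in E11.5 germ cells, against 1422 and 1094 CPM in the other barcodes, with none of 12 at 0. Stroma markers were at 23.4 and 35.6 CPM, against 574 and 785 CPM, with Lum at 0 in E11.5 germ cells. Coelomic epithelium markers were at 74.5 and 92.0 CPM, against 1193 and 1347 CPM, with Upk1b at 0 in E12.5 and Msln at 0 in E11.5 germ cells. The endothelium (102 and 137 CPM, Emcn at 0 at E12.5) and mesonephric (352 and 358 CPM) sums came mostly from genes that the germ cells express themselves: Pecam1 at 77.7 and 74.1 CPM, against 14.8 and 19.7 CPM in the other barcodes, and Epcam at 260 and 277 CPM, against 6.56 and 7.23 CPM. The defining kidney markers Pax2 and Ret were at 0 at E12.5, and Cdh16, Ret and Sim1 at E11.5. Leukocyte markers were at 36.7 CPM in E12.5 and 6.63 CPM in E11.5 germ cells, and 1 E12.5 barcode with 11 selection gene UMIs held 205 of the 229 leukocyte UMIs. Hbb-y, an embryonic globin, had a UMI in 7.44% of E12.5 and 16.0% of E11.5 germ cells after thinning, against 7.82% and 18.1% of the other barcodes. Its level was 21.0 CPM in E12.5 and 59.8 CPM in E11.5 germ cells, and no expression is read from shares that do not exceed those of the other barcodes. The part of these markers in the stage difference was otherwise not tested.

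Variation among the germ cells was described by gene. At 5000 UMIs per barcode the median Fano factor, the variance over the mean, was 1.04 over 2362 genes in 325 E12.5 germ cells and 1.04 over 2537 genes in 300 E11.5 germ cells. The genes had a mean of at least 0.25 UMIs, and at such means a factor near 1 does not show that cells were alike. The most variable genes were Tmsb4x, Apoe, Spata7, Malat1 and Hist1h2ap at E12.5, and Cdkn1c, Hist1h2ap, Malat1, Tmsb4x and H19 at E11.5. Tmsb4x, an actin-binding peptide, had 506 of its 1122 UMIs in E12.5 germ cells in the 1 barcode rich in leukocyte UMIs, which also held 174 of 789 UMIs of Apoe. Hist1h2ap, a histone gene of the replicating cell, had a Fano factor of 4.70 at E12.5 and 6.37 at E11.5. Among germ cell genes, Dazl had quartiles of 4.08 to 9.30 UMIs per 10000 at E12.5 and 2.27 to 6.85 at E11.5, and Pou5f1 of 3.75 to 6.57 and 5.49 to 8.50, so the stages overlapped for both genes.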

How the data were processed

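Raw UMI counts per gene and barcode were deposited by the authors, 1 matrix per library, with no normalization. Per the submitters' processing notes the reads were handled with Cell Ranger 3.0.2 on mm10; how barcodes were called as cells is not stated there. Counts were summed over barcodes and scaled to CPM with exact Poisson 95% intervals, and ratios carry exact conditional binomial intervals. Genes at 0 were set to 3 counts. Shares carry Clopper-Pearson intervals. PCR duplicates were removed through UMIs, and intervals cover counting error only. Shares of barcodes with a UMI used 3000 UMIs per barcode (random seed 1). Doublets were not removed. Scrublet (scanpy 1.11.5) called 0.185% at E12.5 and 0.404% at E11.5, below the shares of 2.60% and 2.18% expected from the number of barcodes. The low calls do not show that doublets were rare. Removal of the highest scores, to 0.8% per 1000 barcodes, is an alternative. Chromosomes came from GENCODE vM21, which matched 30934 of 31053 genes. Python 3.11.15, numpy 2.4.6 and scipy 1.17.1 were used. The call rule was also run on simulated counts with planted differences and counting error only. That simulation held no variation between barcodes or libraries, so it cannot check the calls against such variation.

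The cells, lists and genes were chosen with earlier results of these data known. Named genes are the 10 largest ratios between stages in each direction at 50 CPM or more, at or above the level of the other barcodes where higher; the 10 largest and 5 lowest between germ cells and others; up to 4 called genes of each list; and 50 key genes. Mitochondrial, ribosomal protein, haemoglobin, clone-named and selection genes were left out of the ranking. Not all named genes are described, and some items are not reported here. Apoe, Cdkn1c, Eno1b, Fos, Gng13, H19, Hells, Hist1h2ap, Klf4, Lefty1, Malat1, Mid1, Nodal, Pecam1, Phlda2, Pkm, Rps29, Spata7, Syce3, Sycp1, Tdgf1, Tmsb4x and the markers given as 0 fall outside this rule and were chosen after their values were seen.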

Additional observations from a re-analysis of the deposited data

Results flagged for a closer look

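The germ cell rule also found barcodes in libraries outside the comparison of E12.5 with E11.5. At E10.5 it found 0.288% of barcodes. At E13.5 the share was 2.12%, and the E14.5 share was 7.82%. In the stem cell-derived library 2 of 7519 barcodes met the rule (0.027%), under the floor of 3 counts.

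For 6 named genes the germ cells lay on opposite sides of the other barcodes at the 2 stages, each beyond counting error. This difference was not tested, since each stage is 1 library. The ratio of germ cells over other barcodes was above 1 at E12.5 and below 1 at E11.5 for Acot13 (1.76 at E12.5, 0.576 at E11.5), Tex15 (1.32 and 0.681) and Pdcd4 (1.26 and 0.863). It was below 1 at E12.5 and above 1 at E11.5 for B9d1 (0.516 at E12.5, 1.16 at E11.5), Exosc4 (0.610 and 1.15) and Ppil1 (0.790 and 1.50).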

How the results depend on the processing

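No paired analysis was possible because each stage was 1 library. The number of genes called between stages, 63 higher and 105 lower at E12.5, moved with the minimum level: it was 29 and 46 at 20 CPM, 13 and 12 at 50 CPM, and 305 and 392 with no minimum beyond 3 counts. It was 26 and 22 among genes at least 2-fold higher in germ cells. Scaling to a total without mitochondrial, ribosomal protein and haemoglobin genes gave 138 higher, of 8399 genes measured, and 130 lower, and keeping Stra8-positive barcodes gave 107 higher. Thinning to 3000 UMIs gave 143 and 219 calls, of which 39 and 43 were among those of all UMIs. Between germ cells and other barcodes, 578 higher and 1285 lower at E12.5 became 183 and 390 at 50 CPM, 1531 and 2577 with no minimum, and 852 lower at 20 CPM. At E11.5, 505 and 1317 became 160 and 410 at 50 CPM, and 1425 and 2758 with no minimum. With Stra8-positive barcodes kept, germ cells were 18.6% of E12.5 barcodes and their X-linked share with Xist, 4.25%, was 4.28%. At E11.5 that share, 3.83%, was 3.78% with barcodes weighted equally and 3.82% without barcodes rich in somatic markers. The share of germ cells with an Xist UMI was 14.4% at E12.5 and 14.3% at E11.5 unthinned, and 2.19% and 1.04% without those barcodes, an alternative chosen after seeing the data. Of 25 named genes called between stages, 10 lost the call in 13 of 250 alternative values; Exosc4 and Ppil1 lost it when ratios were centred on the median of all genes. Hbb-y reversed to a log2 ratio of 1.50 with Stra8-positive barcodes kept, which held it at 368 CPM at E12.5, and Pfkl to 0.050 after thinning; the cause was not tested. Depth limits genes near 10 CPM, and 3 counts were 0.481 CPM in E12.5 and 0.423 CPM in E11.5 germ cells.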
